A study of Mus musculus with 24 samples.

Results

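The circadian clock was followed through 10 of its genes in 4 brain areas of mice kept under chronic mild stress (CMS) and of control mice: Arntl, Clock, Per1, Per2, Per3, Cry1, Cry2, Nr1d1, Nr1d2 and Dbp. The members were taken by name, as every probe set whose symbol in the platform annotation was one of these 10, which gave 23 of 45037 probe sets and 10 of the 18193 genes measured. There were 3 arrays for each of the 8 groups, with CMS amygdala, hippocampus, prefrontal cortex (PFC) and cerebral cortex each set against the same area of control mice. All animals were wild-type male C57BL/6 mice, aged 6 to 8 weeks by the labels and kept in 12 h of light and 12 h of dark, and the controls received no stressor. The CMS mice met an unpredictable sequence of stressors on 6 days of each week over 4 weeks, and 1 of these stressors was a night spent in the light, so the light schedule itself was part of the treatment. No hour of brain collection is given in the sources used here. The labels name independent mice while the methods name pooled RNA, so the p-values may measure technical spread alone.

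The clock is a feedback loop of transcription that runs in nearly every cell. CLOCK and BMAL1, the protein of Arntl, bind E-boxes and switch on the Per, Cry, Nr1d1, Nr1d2 and Dbp genes, the PER and CRY proteins then block CLOCK and BMAL1, and the REV-ERB proteins, made from Nr1d1 and Nr1d2, hold down Arntl. In mouse tissues the RNA of Arntl therefore peaks at roughly the opposite time of day from that of Dbp, Nr1d1 and the Per genes, and in brain areas outside the suprachiasmatic nucleus, the master clock of the hypothalamus, the same loop runs as a local clock.

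Per2 and Dbp were higher in CMS than in control mice in all 4 areas. Cry1 and Nr1d2 were higher in 3 areas each and Per3 in 2, while Per1 was lower in 3 areas and Arntl in 2, and Cry2 did not pass the test in any area. Per2 and Per1 thus went opposite ways in the hippocampus, PFC and cerebral cortex of the same animals. No difference of a gene reached 2-fold. Values are on the log2 scale and centred on each probe set's median over the 24 arrays, so that a value of 0 is a typical array and not an absence of RNA. A gene stands for the average of its probe sets, and it passed at a Benjamini-Hochberg adjusted p under 0.05 over all genes, by limma, two-sided.

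The count of members that passed differed between areas and has to be read against the share of all genes that passed there. In the amygdala 4 of the 10 clock genes were higher, against 10.5% of all genes, and 0 were lower (0 also at an unadjusted p under 0.05, and 0 by the methods' t-test), against 8.84%. The hippocampus had 6 of 10 higher, against 4.66% of all genes, and 2 of 10 lower, against 24.9%. The PFC had 4 of 10 higher, against 4.45%, and 2 of 10 lower, against 3.92%. The cerebral cortex also had 4 of 10 higher, against 5.95%, and 2 of 10 lower, against 3.99%. The hippocampal shares depend on the scaling: 5 of 10 clock genes were higher and 1 lower after quantile normalization, against 4.72% and 7.09% of all genes, and also 5 higher and 1 lower after subtraction of each array's median, against 3.88% and 6.23%. The median difference of the 10 genes was 0.21 in the amygdala, 0.19 in hippocampus, 0.11 in the PFC and 0.15 in the cerebral cortex, beside 0.022, -0.048, 0.019 and -0.031 over all genes. Bulk RNA cannot tell fewer cells of a type from less RNA per cell.

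These counts depend on single arrays in the hippocampus and PFC. The hippocampal count of 8 was 5 without CMS replicate 1, 2 or 3 or control replicate 2, and the PFC count of 6 was 2 without CMS replicate 1 and 3 without CMS replicate 3. The authors also required a fold change over 2 and counted probes. With this fold change 0 of 10 clock genes, as means of probe sets, passed in any area. The share of all genes was 0.583% in the amygdala, 0.253% in hippocampus, 0.247% in the PFC and 0.357% in the cerebral cortex. Of the 23 single probe sets, 0 passed it by limma in the amygdala, 1 in hippocampus, 1 in the PFC and 2 in the cerebral cortex. The matching share of all probe sets was not counted. The arrays of CMS and control mice did not overlap for 5 clock genes in the amygdala, 9 in hippocampus, 9 in the PFC and 7 in the cerebral cortex, but they also did not overlap for 55.2%, 56.4%, 48.1% and 52.1% of all genes in these areas. The share of higher genes among all genes that passed was 54.4% in the amygdala, 15.7% in hippocampus, 53.1% in the PFC and 59.9% in the cerebral cortex. After subtraction of each array's median it was 41.7%, 38.4%, 43.0% and 71.9%, and after quantile normalization the hippocampal share was 39.9%.

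**Figure D1:**
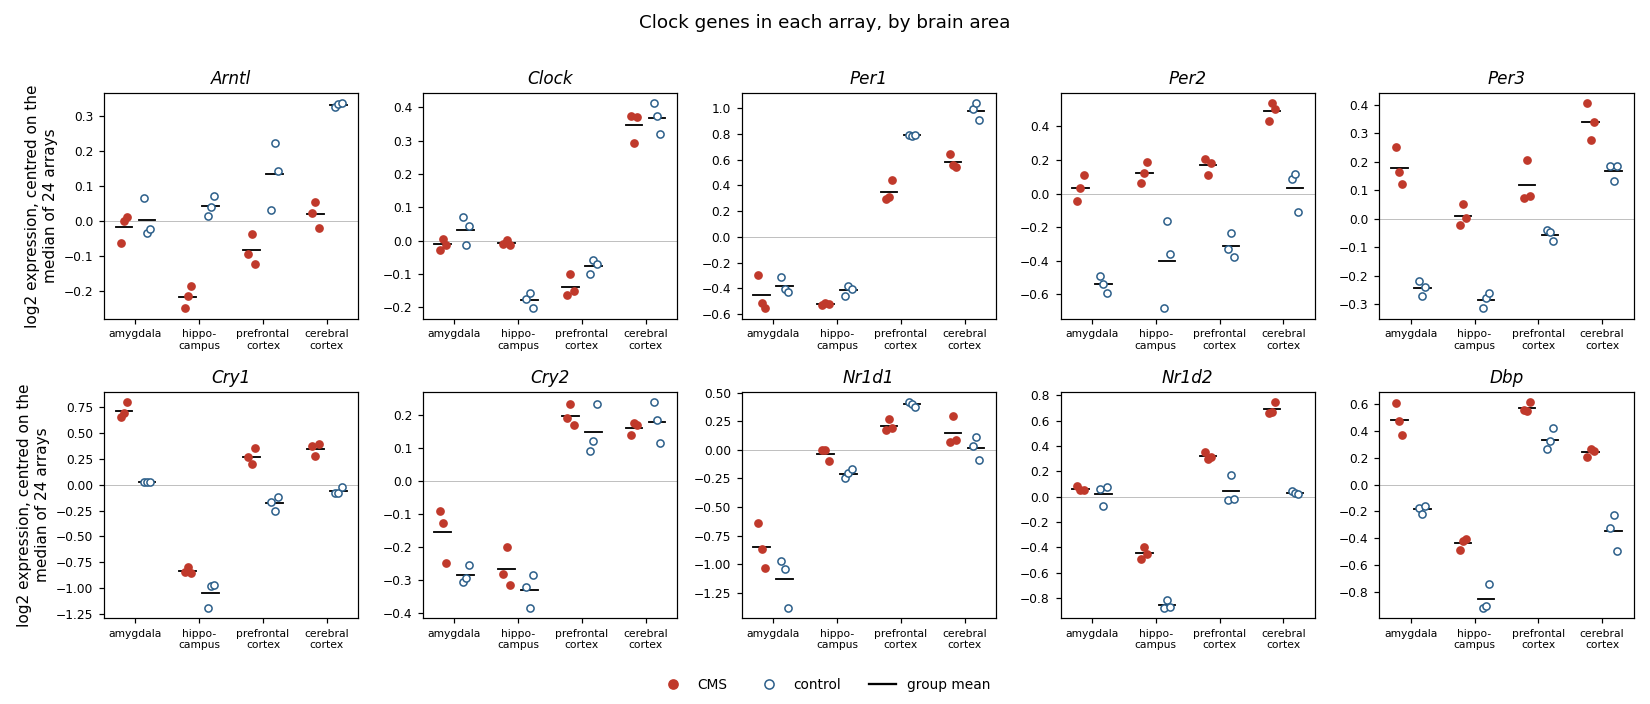
Centred log2 expression of each clock gene in each array (vertical axis, 0 is the median of 24 arrays) for the 4 areas, with CMS arrays filled and left of the open control arrays and a line at each group mean. Per2 and Dbp lie above their controls in all 4 areas, with no overlap, and Per1 lies below its controls in the hippocampus, PFC and cerebral cortex.

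Per2, a repressor of CLOCK and BMAL1 that also responds to light and to glucocorticoids, was the most even of the members as a mean of probe sets. Its probe set 1417602_at was less even, with 0.45 in the cerebral cortex and 1.03 in the PFC. In the amygdala Per2 read -0.042, 0.034 and 0.11 in the CMS arrays, against -0.49, -0.54 and -0.59 in the control arrays. Hippocampal Per2 read 0.060, 0.12 and 0.19 in the CMS arrays, against -0.68, -0.16 and -0.36 in the control arrays. Every CMS array lay above every control array in both areas, and the hippocampal controls were the most scattered group of any member (SD 0.26, n = 3). Per2 in the PFC read 0.21, 0.11 and 0.18 in the CMS arrays, against -0.33, -0.24 and -0.38 in the control arrays. Cerebral cortical Per2 read 0.43, 0.54 and 0.50 in the CMS arrays, against 0.086, 0.12 and -0.11 in the control arrays, again without overlap. Per2 was higher by 0.57 ± 0.049 (SE) in the amygdala (adjusted p = 0.00382), by 0.53 ± 0.14 in the hippocampus (adjusted p = 0.0461), by 0.48 ± 0.045 in the PFC (adjusted p = 0.00863) and by 0.46 ± 0.069 in the cerebral cortex (adjusted p = 0.0187). These are folds of 1.49, 1.44, 1.39 and 1.37. The hippocampal call was lost when any 1 of its 6 arrays was left out (adjusted p 0.0534 to 0.133) and after subtraction of each array's median (adjusted p = 0.0779), and the call in the cerebral cortex was lost without CMS replicate 1, 2 or 3 or control replicate 1 (adjusted p 0.0505 to 0.0712).

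Dbp, a PAR bZIP transcription factor that carries the rhythm to D-box genes and whose own RNA follows CLOCK and BMAL1 closely, was the other gene higher in all areas. Amygdalar Dbp read 0.61, 0.47 and 0.37 in the CMS arrays, against -0.17, -0.22 and -0.16 in the control arrays. Dbp in the hippocampus read -0.49, -0.42 and -0.41 in the CMS arrays, against -0.92, -0.91 and -0.74 in the control arrays. In both areas the lowest CMS array stood above the highest control array. Dbp in the PFC read 0.55, 0.55 and 0.61 in the CMS arrays, against 0.26, 0.32 and 0.42 in the control arrays. Dbp in the cerebral cortex read 0.21, 0.26 and 0.25 in the CMS arrays, against -0.32, -0.23 and -0.49 in the control arrays. The groups were again apart, most widely in the amygdala. The difference was 0.67 ± 0.066, adjusted p = 0.00524 in the amygdala, 0.42 ± 0.055, adjusted p = 0.0136 in the hippocampus, 0.24 ± 0.045, adjusted p = 0.0397 in the PFC and 0.59 ± 0.071, adjusted p = 0.0100 in the cerebral cortex. The PFC call was lost without any of CMS replicates 1, 2 and 3 or control replicates 1 and 2 (adjusted p 0.0792 to 0.113), and the hippocampal call without CMS replicate 3 (adjusted p 0.0546).

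Per1, a repressor of the same family whose gene also answers quickly to neuronal activity and light through CREB, went the other way. Per1 in the PFC read 0.30, 0.31 and 0.44 in the CMS arrays, against 0.79, 0.79 and 0.79 in the control arrays. Per1 in the cerebral cortex read 0.65, 0.56 and 0.54 in the CMS arrays, against 0.99, 1.04 and 0.91 in the control arrays. Both sets of CMS arrays lay well below tight controls. Hippocampal Per1 read -0.53, -0.52 and -0.52 in the CMS arrays, against -0.46, -0.38 and -0.41 in the control arrays, and amygdalar Per1 read -0.30, -0.51 and -0.56 in the CMS arrays, against -0.31, -0.41 and -0.43 in the control arrays. The hippocampal groups were close but did not overlap, and the amygdalar groups overlapped. The difference was -0.44 ± 0.042, adjusted p = 0.00884 in the PFC, -0.40 ± 0.046, adjusted p = 0.00925 in the cerebral cortex, -0.11 ± 0.023, adjusted p = 0.0309 in the hippocampus and -0.074 ± 0.080, adjusted p = 0.506 in the amygdala. The small hippocampal fall rests on every array but control replicate 1: it was lost without any 1 of the other 5 arrays (adjusted p 0.0517 to 0.101), and after subtraction of each array's median it was -0.068 (adjusted p = 0.133).

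Immediate early genes, a class that firing neurons transcribe within minutes, were lower in the same mice, and their part in the Per1 values was not tested. Of 15 such genes measured, 11 were lower and 1 higher in the amygdala, 13 were lower in the hippocampus, and 14 were lower in the PFC and 14 in the cerebral cortex (against 8.84%, 24.9%, 3.92% and 3.99% of all genes lower), with 0 higher in these 3 areas, also at an unadjusted p under 0.05 and by the methods' t-test. Fos differed by -0.67 in the amygdala, -1.36 in hippocampus, -1.25 in the PFC and -1.13 in the cerebral cortex. Glucocorticoid-induced genes, to which Per1 also belongs, did not move one way: of 12, the amygdala had 1 higher and 5 lower (against 10.5% and 8.84% of all genes), the hippocampus 1 and 3 (4.66% and 24.9%), the PFC 2 and 4 (4.45% and 3.92%), and the cerebral cortex 1 and 2 (5.95% and 3.99%). The lower hippocampal count is at the share of all genes there. Ddit4 was lower in each area (-0.66, -0.39, -0.74 and -0.46 in the same order), whereas Fkbp5, which restrains the glucocorticoid receptor, was higher in the hippocampus (0.25 ± 0.042, adjusted p = 0.0200) and cerebral cortex (0.43 ± 0.027, adjusted p = 0.00203).

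**Figure D2:**
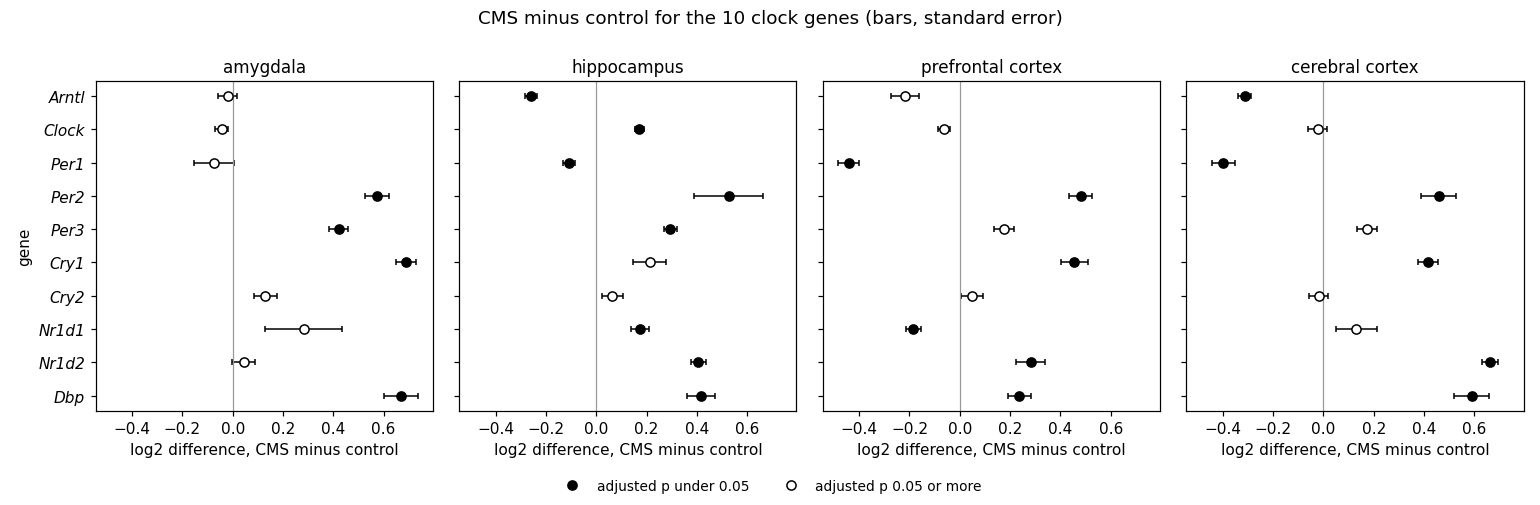
Log2 difference, CMS minus control, of each clock gene (rows) in each area (panels), with bars of 1 standard error and filled points where the adjusted p was under 0.05. Per2 lies between 0.46 and 0.57 in the 4 areas, and Per1 and Arntl lie at or left of 0 in all of them.

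Arntl, the positive arm of the loop, was lower where it changed. Arntl in the cerebral cortex read 0.024, 0.055 and -0.021 in the CMS arrays, against 0.33, 0.33 and 0.34 in the control arrays. Hippocampal Arntl read -0.25, -0.21 and -0.19 in the CMS arrays, against 0.013, 0.041 and 0.073 in the control arrays. The CMS arrays lay below the controls in both areas, and the cortical controls were nearly equal. Arntl in the PFC read -0.094, -0.037 and -0.12 in the CMS arrays, against 0.032, 0.22 and 0.14 in the control arrays, and in the amygdala it read -0.064, -0.00085 and 0.012 in the CMS arrays, against 0.065, -0.033 and -0.022 in the control arrays. The difference was -0.31 ± 0.027, adjusted p = 0.00457 in the cerebral cortex, -0.26 ± 0.025, adjusted p = 0.00804 in the hippocampus, -0.22 ± 0.055, adjusted p = 0.0770 in the PFC and -0.021 ± 0.037, adjusted p = 0.685 in the amygdala. The mean of its probe sets understates what 1 of them shows. Probe set 1425099_a_at was lower by -0.48 ± 0.050, adjusted p = 0.00873 in the hippocampus, -0.47 ± 0.083, adjusted p = 0.0445 in the PFC and -0.62 ± 0.044, adjusted p = 0.00285 in the cerebral cortex, and gave -0.047 in the amygdala. The other, 1457740_at, lay between -0.041 in the hippocampus, where it passed (adjusted p = 0.0348), and 0.039 in the PFC. Its hippocampal value is close to the median over all genes there (-0.048), and 35% of all probe sets passed as lower in that area.

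Clock, the partner of Arntl, passed in the hippocampus alone, where it was higher (0.17 ± 0.017, adjusted p = 0.00854). Its arrays there read -0.010, 0.0025 and -0.015 in the CMS arrays, against -0.18, -0.16 and -0.20 in the control arrays. The difference was -0.044 ± 0.026 in the amygdala, -0.062 ± 0.024 in the PFC and -0.022 ± 0.038 in the cerebral cortex. Its 4 probe sets did not go one way. The hippocampal call rests on 1439314_at, as the others gave -0.043 to 0.088 there and did not pass. Probe set 1439314_at was higher in the hippocampus (0.67 ± 0.093, adjusted p = 0.0136) and cerebral cortex (0.49 ± 0.079, adjusted p = 0.0237), while in the cerebral cortex 1435775_at was lower (-0.36 ± 0.034, adjusted p = 0.00585) and 1418660_at was lower (-0.25 ± 0.048, adjusted p = 0.0394). With the most variable probe set in place of the mean, Clock in the cerebral cortex was 0.49 (adjusted p = 0.0235), against -0.022 for the mean, so no direction holds for Clock there.

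Cry1, the strongest of the cryptochrome repressors and the member with the latest peak in the day, was higher in 3 areas. Amygdalar Cry1 read 0.66, 0.69 and 0.80 in the CMS arrays, against 0.025, 0.031 and 0.028 in the control arrays. Cry1 in the PFC read 0.27, 0.20 and 0.35 in the CMS arrays, against -0.17, -0.26 and -0.12 in the control arrays. The amygdalar CMS arrays stood far above nearly equal controls. Cry1 in the cerebral cortex read 0.37, 0.28 and 0.40 in the CMS arrays, against -0.084, -0.081 and -0.025 in the control arrays, and hippocampal Cry1 read -0.85, -0.80 and -0.85 in the CMS arrays, against -1.19, -0.98 and -0.97 in the control arrays. The groups did not overlap in any area. The difference was 0.69 ± 0.039, adjusted p = 0.00166 in the amygdala, 0.45 ± 0.055, adjusted p = 0.0134 in the PFC, 0.41 ± 0.040, adjusted p = 0.00582 in the cerebral cortex and 0.21 ± 0.066, adjusted p = 0.0632 in the hippocampus, where it did not pass. The PFC call was lost without CMS replicate 1 (adjusted p = 0.0541). Cry2, the other cryptochrome, whose RNA cycles weakly in most tissues, did not pass: the difference was 0.13 ± 0.046, adjusted p = 0.116 (unadjusted p = 0.0388) in the amygdala, 0.064 ± 0.041 in hippocampus, 0.049 ± 0.043 in the PFC and -0.019 ± 0.037 in the cerebral cortex.

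Nr1d2, which makes REV-ERBβ, was higher in 3 areas and showed the lowest adjusted p of any member in the cerebral cortex. Its arrays there read 0.66, 0.67 and 0.75 in the CMS arrays, against 0.044, 0.028 and 0.019 in the control arrays. Hippocampal Nr1d2 read -0.49, -0.40 and -0.45 in the CMS arrays, against -0.87, -0.81 and -0.87 in the control arrays, and Nr1d2 in the PFC read 0.36, 0.30 and 0.32 in the CMS arrays, against -0.025, 0.17 and -0.016 in the control arrays. No CMS array reached down to a control array in these 3 areas. Amygdalar Nr1d2 read 0.086, 0.053 and 0.055 in the CMS arrays, against 0.060, -0.074 and 0.078 in the control arrays, and there the groups overlapped. The difference was 0.66 ± 0.031, adjusted p = 0.000914 in the cerebral cortex, 0.41 ± 0.032, adjusted p = 0.00622 in the hippocampus, 0.28 ± 0.058, adjusted p = 0.0481 in the PFC and 0.043 ± 0.045, adjusted p = 0.493 in the amygdala. The PFC call was lost without any of CMS replicates 1, 2 and 3 or control replicates 1 and 3 (adjusted p 0.115 to 0.138). Probe set 1416958_at was higher in all 4 areas (0.35 in the amygdala, 0.18 in hippocampus, 0.41 in the PFC and 0.20 in the cerebral cortex), whereas 1416959_at spanned -0.27 in the amygdala, where it did not pass, and 1.12 ± 0.054, adjusted p = 0.00121 in the cerebral cortex.

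Nr1d1, which makes REV-ERBα, changed in opposite directions in a pair of areas and by little. It was higher in the hippocampus (0.17 ± 0.037, adjusted p = 0.0308), where it read -0.0016, 0.0016 and -0.099 in the CMS arrays, against -0.25, -0.20 and -0.17 in the control arrays. It was lower in the PFC (-0.19 ± 0.029, adjusted p = 0.0259), where it read 0.18, 0.27 and 0.19 in the CMS arrays, against 0.42, 0.40 and 0.38 in the control arrays. In both areas the groups were apart but close. The difference was 0.28 ± 0.15, adjusted p = 0.237 in the amygdala, where control arrays spanned -1.38 to -0.97, and 0.13 ± 0.081, adjusted p = 0.351 in the cerebral cortex. The hippocampal call was lost without CMS replicate 1 or 2 or control replicate 1 or 2 (adjusted p 0.0831 to 0.0934), and the PFC call without any of CMS replicates 1 and 3 or control replicates 1, 2 and 3 (adjusted p 0.0652 to 0.0830).

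Per3, a member of the Per family that adds little to the loop itself in mice but follows it closely, was higher in the amygdala and hippocampus. Amygdalar Per3 read 0.25, 0.16 and 0.12 in the CMS arrays, against -0.22, -0.27 and -0.24 in the control arrays. Hippocampal Per3 read -0.022, 0.051 and 0.0017 in the CMS arrays, against -0.31, -0.28 and -0.26 in the control arrays. All CMS arrays lay above all controls. The difference was 0.42 ± 0.039, adjusted p = 0.00451 in the amygdala, 0.29 ± 0.026, adjusted p = 0.00727 in the hippocampus, 0.18 ± 0.041, adjusted p = 0.0667 in the PFC and 0.17 ± 0.040, adjusted p = 0.0564 in the cerebral cortex, and the groups did not overlap in the PFC and cerebral cortex either. Its 6 probe sets differed widely. Probe set 1421087_at was higher in the amygdala (0.93 ± 0.14, adjusted p = 0.0176), hippocampus (0.43 ± 0.083, adjusted p = 0.0240) and PFC (0.56 ± 0.090, adjusted p = 0.0377). Probe set 1458176_at was higher in the hippocampus (1.10 ± 0.15, adjusted p = 0.0133) and cerebral cortex (1.54 ± 0.084, adjusted p = 0.00153) and was -0.017 in the PFC. Probe set 1441445_at was higher in the amygdala (0.50), hippocampus (0.35) and PFC (0.23) and lower in the cerebral cortex (-0.37 ± 0.075, adjusted p = 0.0456). The remaining probe sets gave -0.36 to 0.19 in the cerebral cortex and did not pass. The positive mean of Per3 there rests on 1458176_at, so no direction holds for Per3 in that area. Where in the transcript each probe set lies was not examined here.

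**Figure D3:**
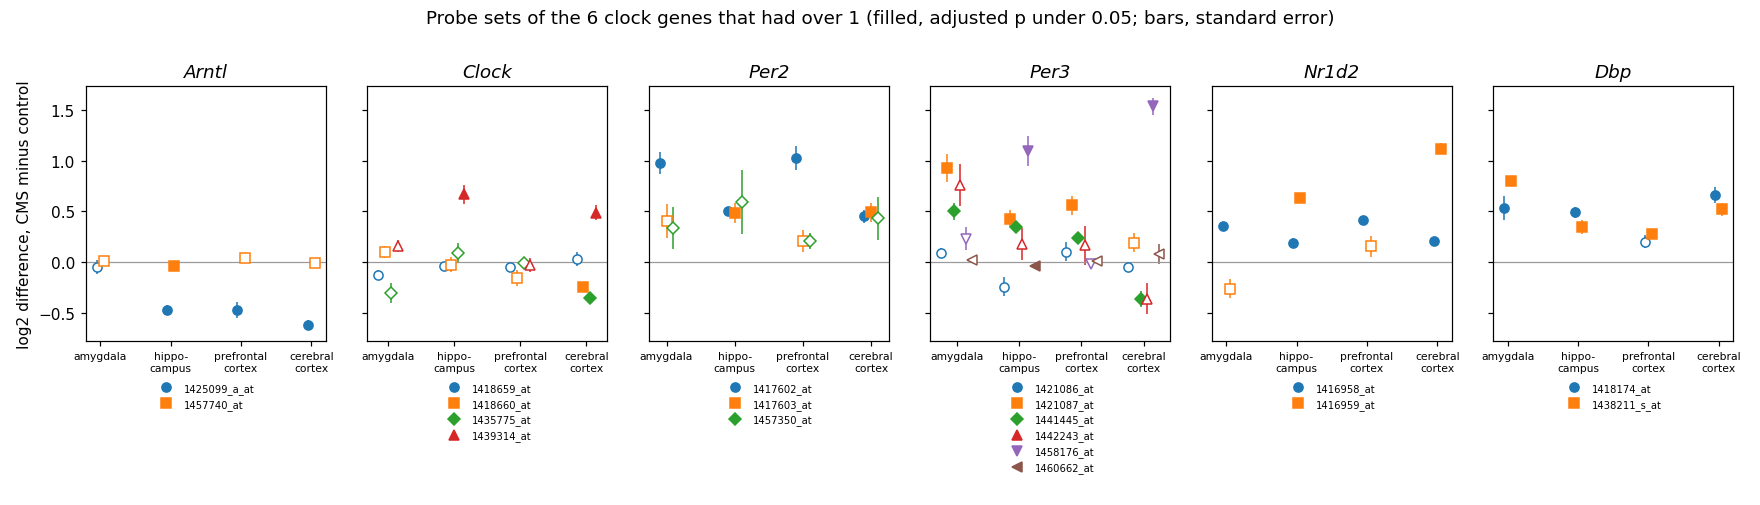
Log2 difference, CMS minus control, of each probe set (marker and colour) of the 6 clock genes with more than 1 probe set, in each area (horizontal axis), with bars of 1 standard error and filled markers where the adjusted p was under 0.05. The 2 probe sets of Dbp stay together, whereas those of Per3 in the cerebral cortex lie between -0.37 and 1.54.

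Taken by probe set, 7 of the 23 were higher and 0 lower in the amygdala (limma; 3 lower at an unadjusted p under 0.05, 0 by the methods' t-test; the share of all probe sets was 11.4% higher and 6.88% lower). The hippocampus had 11 higher and 4 lower, against 5.68% and 35% of all probe sets, and after quantile normalization 10 higher and 1 lower, against 4.90% and 7.14%. The PFC had 6 higher and 3 lower, against 2.78% and 2.48%, and the cerebral cortex had 9 higher and 5 lower, against 5.49% and 3.67%. Per2 was the gene whose probe sets agreed in sign throughout: 1417602_at was higher in the amygdala (0.98 ± 0.11, adjusted p = 0.00861), hippocampus (0.50 ± 0.035, adjusted p = 0.00493), PFC (1.03 ± 0.12, adjusted p = 0.0187) and cerebral cortex (0.45 ± 0.064, adjusted p = 0.0169), and the other probe sets of Per2 gave 0.21 to 0.59. The probe sets of Dbp were also all above 0, at 0.20 to 0.80.

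E-boxes and related motifs were looked for in the 250 bases before the start of each gene, since these are the letters through which the loop acts. RefSeq promoters (GRCm38.p6) were given for 9 of the 10 members, all but Per2. The E-box CACGTG lay in 2 of the 9 (Cry1 and Per1) and in 6.02% of 32851 promoters, and the related CACGTT in 3 of the 9 (Cry1, Cry2 and Nr1d1) and in 3.85%. The D-box TTANGTAA, through which DBP acts, lay in 1 of the 9 (Per3) and in 2.06%, and the ROR element TAGGTCA, through which REV-ERB proteins act, lay in 0 of the 9 and in 2.23%. The CRE TGACGTCA lay in 0 of the 9 and in 1.55%, and its first 5 letters TGACG lay in 3 of the 9 (Cry1, Cry2 and Per1) and in 17.8%. A member was counted if any of its listed promoters held the motif, whereas the percentages are per promoter. Per1 had more than 1 listed promoter, and its E-box lay in only 1. Both strands were searched, and a match describes letters and not a bound site. Bases outside this stretch, such as introns, were not searched, so a gene without a match may still hold the motif elsewhere. The stretches below hold the matches of the genes that the results turn on, with the motif in capitals, 5′ to 3′ on the strand of the gene. They are shown because Per1 and Cry1 carry the same E-box and moved in opposite directions in the PFC and cerebral cortex. AACGTG is the reverse complement of CACGTT, and TGACCTA that of TAGGTCA.
Per1 (chr11:69098753-69098818, plus strand): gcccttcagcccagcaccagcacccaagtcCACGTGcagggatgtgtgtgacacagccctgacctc
Cry1 (chr10:85185079-85185163, minus strand): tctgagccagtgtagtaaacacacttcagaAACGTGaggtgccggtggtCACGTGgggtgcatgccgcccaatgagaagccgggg
Nr1d1 (chr11:98775378-98775435, minus strand): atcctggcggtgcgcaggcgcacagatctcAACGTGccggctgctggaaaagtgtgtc
Per3 (chr4:151044786-151044900, minus strand): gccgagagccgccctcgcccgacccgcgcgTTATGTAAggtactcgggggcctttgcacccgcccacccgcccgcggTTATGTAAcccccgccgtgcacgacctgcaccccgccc
Ciart (chr3:95882237-95882374, minus strand): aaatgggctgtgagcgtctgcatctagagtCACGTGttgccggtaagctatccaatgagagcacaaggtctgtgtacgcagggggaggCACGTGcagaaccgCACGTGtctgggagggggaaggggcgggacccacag
Nfil3 (chr13:52981040-52981081, minus strand): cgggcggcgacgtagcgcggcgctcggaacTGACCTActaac

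Ciart and Nfil3 are not among the 10 but belong to the same loop. Ciart, a repressor of CLOCK and BMAL1 whose promoter above holds 3 E-boxes, was higher in all 4 areas. Amygdalar Ciart read 0.14, 0.20 and -0.19 in the CMS arrays, against -0.52, -0.72 and -0.60 in the control arrays. Hippocampal Ciart read -0.71, -0.47 and -0.65 in the CMS arrays, against -1.76, -1.80 and -1.08 in the control arrays. No array of one group reached the other in either area. Ciart in the PFC read 0.49, 0.45 and 0.52 in the CMS arrays, against 0.058, -0.058 and -0.071 in the control arrays, and in the cerebral cortex it read 1.02, 1.03 and 1.07 in the CMS arrays, against 0.42, 0.55 and 0.14 in the control arrays. The difference was 0.67 ± 0.12, adjusted p = 0.0239 in the amygdala, 0.94 ± 0.22, adjusted p = 0.0361 in the hippocampus, 0.51 ± 0.042, adjusted p = 0.00676 in the PFC and 0.67 ± 0.11, adjusted p = 0.0213 in the cerebral cortex. Ciart thus went the same way as Per2 and Dbp.

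Nfil3, a repressor at D-boxes that REV-ERB proteins hold down, was lower in the hippocampus, PFC and cerebral cortex, by more than any of the 10 members. Cerebral cortical Nfil3 read -0.0094, -0.0039 and 0.016 in the CMS arrays, against 1.54, 1.29 and 0.87 in the control arrays. Nfil3 in the PFC read -0.17, -0.26 and -0.17 in the CMS arrays, against 0.93, 1.00 and 1.04 in the control arrays. Hippocampal Nfil3 read -1.16, -0.93 and -0.81 in the CMS arrays, against 0.019, 0.061 and 0.0039 in the control arrays. In these areas every CMS array lay below every control array. The difference was -1.23 ± 0.17, adjusted p = 0.0145 in the cerebral cortex, -1.19 ± 0.040, adjusted p = 0.000599 in the PFC, -0.99 ± 0.092, adjusted p = 0.00752 in the hippocampus and -0.42 ± 0.13, adjusted p = 0.0932 in the amygdala, where it did not pass. The 3 areas in which Nfil3 passed as lower were those in which Nr1d2, as the mean of its probe sets, passed as higher. In the amygdala, where neither passed, Nfil3 differed by -0.42 and Nr1d2 by 0.043. This match did not hold by probe set. By limma, 1416958_at of Nr1d2 was higher in the amygdala too (0.35, adjusted p = 0.00598). Nfil3 is also known as a gene induced by activity and cytokines, like the immediate early genes above. What lowered Nfil3 was not tested.

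**Figure D4:**
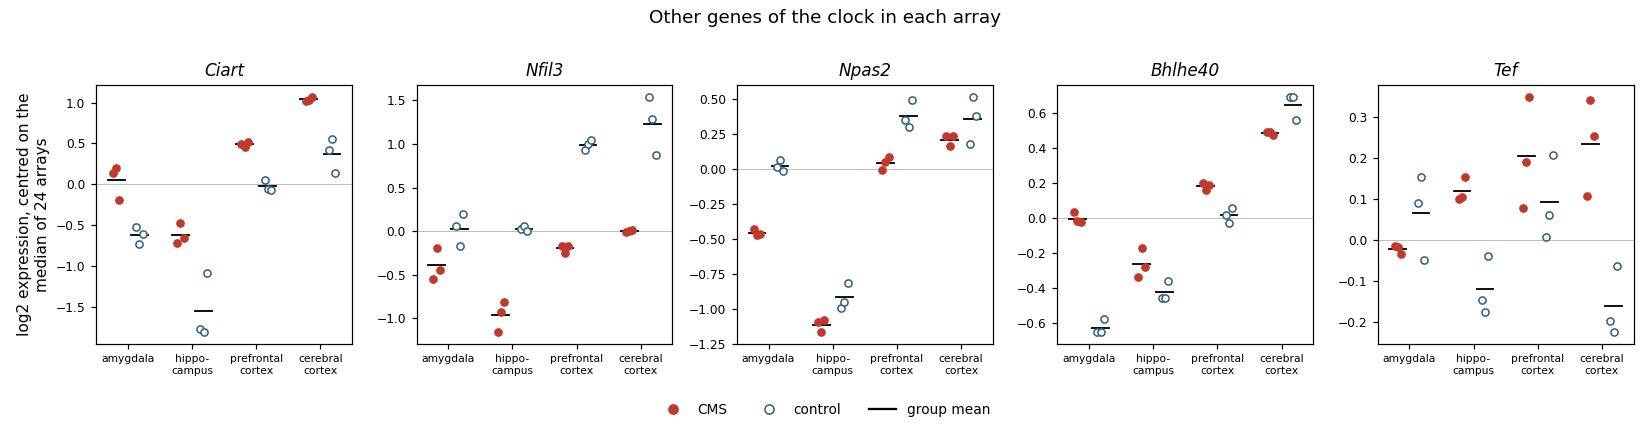
Centred log2 expression of 5 further clock genes in each array, with CMS arrays filled and left of the open control arrays and a line at each group mean. Ciart lies above its controls in all 4 areas, and Nfil3 lies below its controls, without overlap, in the hippocampus, PFC and cerebral cortex.

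Of 31 further clock genes listed, 29 were measured. In the amygdala 7 were higher and 2 lower, against 10.5% and 8.84% of all genes. In the hippocampus 8 were higher and 3 lower, against 4.66% and 24.9%. The PFC had 3 higher and 3 lower, against 4.45% and 3.92%, and the cerebral cortex 7 higher and 2 lower, against 5.95% and 3.99%. The median difference of these genes was -0.037 in the amygdala, -0.031 in hippocampus, 0.015 in the PFC and -0.031 in the cerebral cortex. Npas2, which can stand in for Clock in the forebrain, was lower in the amygdala (-0.48 ± 0.026, adjusted p = 0.00156) and PFC (-0.34 ± 0.057, adjusted p = 0.0308). Bhlhe40, an E-box repressor that also responds to many stimuli, was higher in the amygdala (0.62 ± 0.029, adjusted p = 0.00126) and PFC (0.17 ± 0.028, adjusted p = 0.0298). Tef, a PAR bZIP factor like Dbp, was higher in the hippocampus (0.24 ± 0.042, adjusted p = 0.0221) and cerebral cortex (0.40 ± 0.075, adjusted p = 0.0330). Hlf, the third of these factors, was higher in the amygdala (0.30 ± 0.056, adjusted p = 0.0251) and lower in the hippocampus (-0.19 ± 0.041, adjusted p = 0.0321). Rora, the activator that competes with the REV-ERB proteins, was higher in the hippocampus (0.22 ± 0.032, adjusted p = 0.0158), cerebral cortex (0.12 ± 0.020, adjusted p = 0.0252) and, slightly, the amygdala (0.073 ± 0.017, adjusted p = 0.0468). Usp2, an output gene that encodes a deubiquitinase, was higher in the amygdala (0.64 ± 0.057, adjusted p = 0.00426) and lower in the cerebral cortex (-0.23 ± 0.040, adjusted p = 0.0270). Tspan4 was higher in the hippocampus (0.47 ± 0.12, adjusted p = 0.0431), and Nampt, which makes NAD, was higher in the PFC (0.27 ± 0.048, adjusted p = 0.0336) and cerebral cortex (0.33 ± 0.069, adjusted p = 0.0431). Tsc22d3, an output gene that is also induced by glucocorticoids and stands in both lists, was lower in the amygdala (-0.57 ± 0.020, adjusted p = 0.000762), hippocampus (-0.20 ± 0.020, adjusted p = 0.00863) and PFC (-0.099 ± 0.017, adjusted p = 0.0290) and differed by -0.091 ± 0.058, adjusted p = 0.358 in the cerebral cortex. Among the kinases, ligases and other partners of the clock, 3 of 15 were higher in the amygdala, 4 in hippocampus, 0 in the PFC (limma; 1 at an unadjusted p under 0.05, 0 by the methods' t-test) and 3 in the cerebral cortex, and 1 was lower, Usp2 in the cerebral cortex. Gsk3b and Prkaa2, kinases that mark clock proteins, were higher in the amygdala, hippocampus and cerebral cortex (Gsk3b by 0.59, 0.26 and 0.59). Temperature-responsive genes, which can follow the body clock, were mostly lower where they passed (6 of 8 in the amygdala, 3 in hippocampus, 4 in the PFC and 3 in the cerebral cortex), but the cold-inducible Cirbp was higher in the hippocampus, PFC and cerebral cortex and lower in the amygdala (-0.49 ± 0.10, adjusted p = 0.0333).

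To set the arms of the loop against each other within an array, the mean of 6 genes was taken minus Arntl. These genes (Per1, Per2, Per3, Nr1d1, Nr1d2 and Dbp) are known as switched on through E-boxes. They were not chosen by the motif search above, which matched CACGTG or CACGTT among them only in Per1 and Nr1d1 and had no promoter for Per2. In the amygdala the difference was 0.060, -0.11 and -0.17 in CMS arrays, against -0.41, -0.39 and -0.43 in control arrays. The hippocampal values were 0.0052, 0.021 and -0.029 in CMS arrays, against -0.59, -0.50 and -0.54 in control arrays. All CMS arrays lay above all control arrays in both areas. The PFC values were 0.37, 0.33 and 0.43 in CMS arrays, against 0.15, 0.0090 and 0.043 in control arrays. Values in the cerebral cortex were 0.38, 0.38 and 0.43 in CMS arrays, against -0.16, -0.13 and -0.27 in control arrays. The CMS mean was thus higher by 0.34 in the amygdala, 0.54 in hippocampus, 0.31 in the PFC and 0.58 in the cerebral cortex, without overlap in any area. These values describe genes already given above and carry no test. Against the mean of Arntl, Clock and Npas2 in place of Arntl alone, the CMS mean was higher by 0.50, 0.38, 0.30 and 0.43 in the same order. Per1 pulled against the others: without it, a choice made after the values were seen, the differences were 0.42, 0.62, 0.41 and 0.72.

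Whether the groups were shifted in clock phase cannot be read from 1 time point. The high Per2, Dbp, Nr1d2 and Ciart with low Arntl and Nfil3 of the hippocampus and cerebral cortex lie on opposite sides of the loop, in which these groups of genes peak at about opposite times of day. Per1, which in most mouse tissues peaks ahead of Per2, lay on the side of Arntl in these areas, and Nr1d1, which peaks ahead of Dbp, was higher in the hippocampus, lower in the PFC and not past the test in the amygdala and cerebral cortex. A later or earlier phase, a change of amplitude, a different hour of collection for CMS and control mice and the lit nights of the CMS schedule cannot be told apart here.

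**Figure D5:**
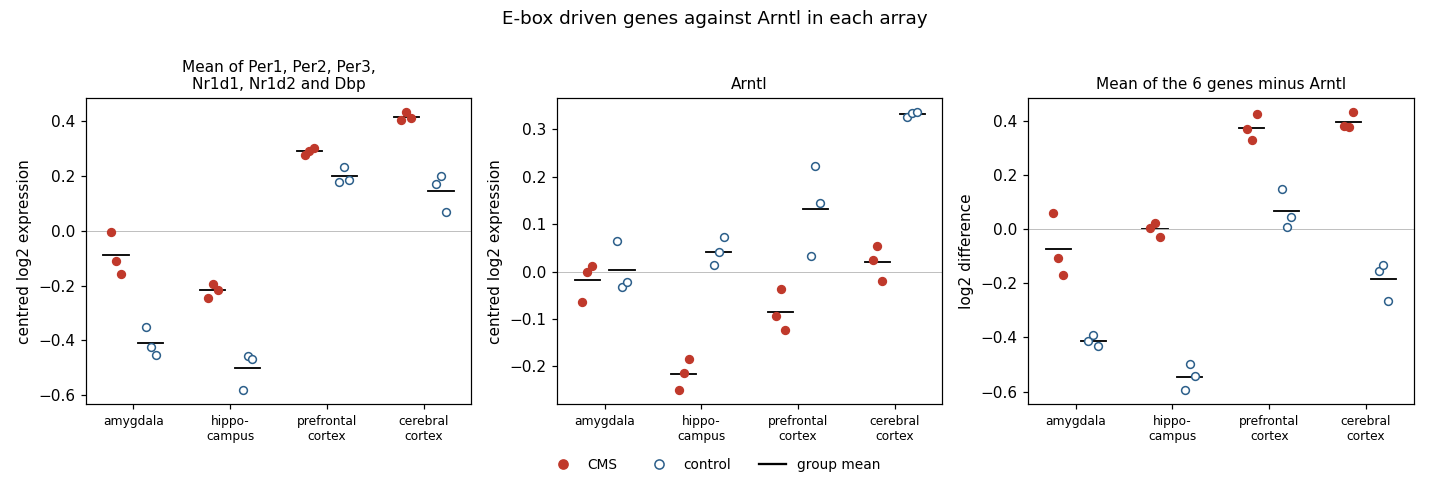
Mean centred log2 expression of 6 clock genes known as driven through E-boxes (left), of Arntl (middle) and the first minus the second (right) in each array, by area, with CMS arrays filled and left of the open control arrays and a line at each group mean. On the right the CMS arrays lie above the control arrays in each of the 4 areas, by 0.31 to 0.58 in the mean.

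The CMS difference itself varied between areas for most members. By the limma F test of the interaction over 24 arrays, 8 of the 10 clock genes passed, beside 52.3% of all genes. Nr1d2 varied most, with 0.043 in the amygdala and 0.66 in the cerebral cortex (adjusted p = 7.63e-06). Clock (adjusted p = 0.000375), Cry1 (adjusted p = 0.000889), Per1 (adjusted p = 0.00115), Arntl (adjusted p = 0.00210), Per3 (adjusted p = 0.00320), Dbp (adjusted p = 0.00399) and Nr1d1 (adjusted p = 0.0386) followed. This test used the means of probe sets, and those of Nr1d2 disagreed on the order of areas. Probe set 1416959_at gave -0.27 in the amygdala and 1.12 in the cerebral cortex, whereas 1416958_at gave 0.35 and 0.20. Single probe sets of Clock, Per2 and Per3 also differed, as given above. Per2 (adjusted p = 0.839), whose differences spanned 0.46 to 0.57, and Cry2 (adjusted p = 0.234) did not pass.

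Control mice differed between areas in all 10 clock genes by the limma F test over 12 arrays, beside 58.1% of all genes. Per1 was highest in the cerebral cortex (0.98 ± 0.064, SD, n = 3) and PFC (0.79 ± 0.0035) and low in the amygdala (-0.38 ± 0.063) and hippocampus (-0.41 ± 0.039), which did not differ beyond their spread (adjusted p = 0.489). Nr1d1 was highest in the PFC (0.40 ± 0.019) and lowest in the amygdala (-1.13 ± 0.22), apart from the hippocampus next to it (adjusted p = 2.41e-05). Cry1 was lowest in the hippocampus (-1.05 ± 0.12), and the amygdala, cerebral cortex and PFC above it were not told apart as neighbours (adjusted p 0.308 and 0.151). Nr1d2 was likewise lowest in the hippocampus (-0.85 ± 0.035), and the other 3 areas lay at 0.021 to 0.042. Dbp was highest in the PFC (0.34 ± 0.078) and lowest in the hippocampus (-0.86 ± 0.097). Arntl, Clock, Per2, Per3 and Cry2 were highest in the cerebral cortex, with ranges over the area means of 0.33, 0.55, 0.57, 0.45 and 0.51. For Clock every neighbour in the order differed. For Arntl the PFC, hippocampus and amygdala were not told apart as neighbours (adjusted p 0.110 and 0.483), nor were the PFC, hippocampus and amygdala for Per2 (adjusted p 0.520 and 0.338). The amygdala and hippocampus were not told apart for Per3 (adjusted p = 0.190) or Cry2 (adjusted p = 0.405), nor were the cerebral cortex and PFC for Cry2 (adjusted p = 0.589). For Dbp the amygdala and cerebral cortex were not told apart (adjusted p = 0.122), nor were the cerebral cortex and hippocampus for Nr1d1 (adjusted p = 0.0882). The levels are relative to each gene's own median, so genes cannot be ranked against each other.

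The genes most like a member over the 24 arrays, after the mean of each area had been subtracted, were looked up for 5 members as a description. These arrays share the CMS difference, so the likeness holds that difference as well as the spread within groups. Arntl was followed most closely by Gm5124 (Pearson r = 0.92), Egr2 (0.92) and Dusp1 (0.92), of which Egr2 and Dusp1 are immediate early genes. Per1 was closest to Gadd45b (0.93), a stress and activity gene, then Vsnl1 (0.92) and Cbx6 (0.91). Per2 was closest to Zfp207 (0.93), Sox17 (0.92), a transcription factor of blood vessels, and Rbm39 (0.92). Dbp was closest to Ociad2 (0.94), Abcb1a (0.94), a drug pump of the blood-brain barrier, and Luc7l2 (0.94). Nr1d1 had weaker neighbours in Ube2v1 (0.85), Dusp11 (0.84) and Trim28 (0.82).

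Several lists of markers of neighbouring tissue and other cell types differed between the groups, and their part in the clock values was not tested. The counts below stand beside these shares of all genes. Higher were 10.5% in the amygdala, 4.66% in hippocampus, 4.45% in the PFC and 5.95% in the cerebral cortex. Lower were 8.84%, 24.9%, 3.92% and 3.99% in the same order. The hippocampal arrays carried their own markers, with a list mean of 3.59 to 3.68 in CMS and 3.74 to 3.82 in control mice. Thalamus markers were higher in the CMS hippocampus in 7 of 9 genes (list mean 0.72 to 0.77 in CMS arrays, against -0.44 to -0.43 in control arrays). Striatum markers were higher in the CMS cerebral cortex in 8 of 8 genes (-0.85 to -0.76 in CMS arrays, against -2.45 to -2.22 in control arrays) and in the CMS amygdala in 7 of 8 (1.55 to 1.60 in CMS arrays, against 1.21 to 1.23 in control arrays), and in the CMS PFC 1 was higher and 4 were lower (0.74 to 0.78 in CMS arrays, against 0.90 to 0.95 in control arrays). Oligodendrocyte markers were lower in the CMS amygdala in 6 of 7 (-0.44 to -0.35 in CMS arrays, against -0.0065 to 0.059 in control arrays) and in the CMS PFC in 5 of 7 (-0.35 to -0.31 in CMS arrays, against -0.14 to -0.077 in control arrays), and higher in the CMS cerebral cortex in 4 of 7 (0.12 to 0.17 in CMS arrays, against -0.024 to -0.018 in control arrays). Astrocyte markers were lower in 4 of 8 genes in the amygdala (-0.0047 to 0.032 in CMS arrays, against 0.22 to 0.23 in control arrays) and higher in 4 of 8 in the cerebral cortex (0.085 to 0.096 in CMS arrays, against -0.24 to -0.16 in control arrays). Hippocampus markers in the amygdala were lower in 4 of 9 and higher in 1 (-0.31 to -0.15 in CMS arrays, against 0.41 to 0.50 in control arrays). Choroid plexus markers were lower in the CMS cerebral cortex in 8 of 8 (-1.68 to -1.59 in CMS arrays, against 1.87 to 1.96 in control arrays) and in the CMS PFC in 5 of 8. Neutrophil markers were higher in the CMS PFC in 6 of 8 (3.83 to 3.99 in CMS arrays, against 0.80 to 0.91 in control arrays). Outside the PFC most of this list did not pass. There 2 of 8 were higher in the amygdala and 2 in the cerebral cortex, and in the hippocampus 1 was higher and 1 lower. Markers of the hypothalamus and suprachiasmatic nucleus passed in 4 of 10 genes in the amygdala, 1 higher and 3 lower. Their list mean there was 0.44 to 0.47 in CMS arrays, against 0.86 to 1.01 in control arrays. In the hippocampus 1 was higher and 2 were lower, the lower count being no more than the share of all genes there. In the PFC 1 was higher and 1 lower. In the cerebral cortex 0 passed (by limma, with 1 at an unadjusted p under 0.05 and 0 by the methods' t-test). A centred table does not show which markers are absent. Beside Per2, Dbp and Ciart, which were higher in all 4 areas, the neutrophil gene S100a8 and the endothelial gene Cldn5 were also higher in all 4. Of 6 endothelial markers, 3 were higher in the amygdala (list mean 0.13 to 0.22 in CMS arrays, against -0.24 to -0.14 in control arrays), 3 in the hippocampus (-0.46 to -0.33 in CMS arrays, against -0.51 to -0.40 in control arrays), 2 in the PFC (0.34 to 0.54 in CMS arrays, against 0.29 to 0.47 in control arrays) and 1 in the cerebral cortex (0.088 to 0.20 in CMS arrays, against -0.14 to 0.073 in control arrays), and 1 each was lower in hippocampus and cerebral cortex.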

How the data were processed

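RNA of 4 brain areas was hybridized to 24 Affymetrix whole-genome mouse arrays. The authors summarized the CEL files with GCRMA in GeneSpring GX and applied a baseline to mean normalization (the sources used here give no versions). The deposited values are log2 values in which each probe set has a median of 0 over all arrays (largest deviation 5e-07), so neither an absolute level nor a signal over background can be read, and the precision is limited by how many arrays there are.

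The fits left out 64 Affymetrix controls. Of 45037 tested, 34945 had 1 gene symbol in the platform annotation, 932 had several and 9160 had none, and symbols were updated through gene identifiers to RefSeq (GRCm38.p6). Each area was fitted with limma 3.58.1 (statmod 1.5.0, R 4.3.3), CMS against control, with no covariate. Area differences used all 24 arrays. The members and gene lists were chosen with earlier results of these data known. Named from the other lists were up to 4 passing genes per area with the largest difference and, for 5 members, the 3 genes with the highest correlation; others are named for comparison. The 11 listed genes with no probe set of their own were not analysed here. Scripts were tested on simulated data. Alternatives were the methods' t-test, 1 fit of all arrays, quantile normalization, median subtraction and genes with an SD above the median. Others were trend and robust options, array weights, the replicate number, alone or with treatment, as a block, leaving out each array and the most variable probe set per gene. Same-numbered arrays did not deviate together (r -0.065 to 0.027). Plots used matplotlib 3.10.9 (Python 3.11.15).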

Additional observations from a re-analysis of the deposited data

Results flagged for a closer look

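The effect of CMS differed between the 4 areas for 8 of the 10 clock genes by the limma F test of the interaction over 24 arrays. Nr1d2 gave an adjusted p of 7.63e-06, with 0.043 in the amygdala, 0.28 in the PFC, 0.41 in hippocampus and 0.66 in the cerebral cortex. Its probe sets disagreed: 1416959_at gave -0.27 in the amygdala and 1.12 in the cerebral cortex, whereas 1416958_at gave 0.35 and 0.20. Clock gave an adjusted p of 0.000375, with 0.17 in the hippocampus and -0.062 in the PFC. Cry1 gave 0.000889, with 0.69 in amygdala and 0.21 in hippocampus, and Per1 gave 0.00115, with -0.44 in the PFC and -0.074 in the amygdala. Arntl gave 0.00210, with -0.31 in cerebral cortex and -0.021 in amygdala, and Per3 gave 0.00320, with 0.42 in amygdala and 0.17 in the cerebral cortex. Dbp gave 0.00399, with 0.67 in the amygdala and 0.24 in the PFC, and Nr1d1 gave 0.0386, with 0.28 in the amygdala and -0.19 in the PFC. Of all genes, 52.3% passed the same test.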

How the results depend on the processing

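Of 24 differences of a clock gene in an area that passed, none changed sign under any alternative run, 15 passed without each array in turn and 9 passed under every other alternative that gave them a value, the fold threshold aside. Without each array in turn, the count of members that passed was 4 to 5 in the amygdala, 5 to 6 in the hippocampus, 2 to 4 in the PFC and 5 to 6 in the cerebral cortex. With a fold change over 2 it was 0 in each area. Among genes with an SD above the median it was 5 in the hippocampus. In the PFC it was 2 by the methods' t-test and 3 with the trend and robust options. Arrays shared only a number, and a fit with this replicate number as a block gave a count of 4 in the amygdala, 0 in the hippocampus (limma; 9 at an unadjusted p under 0.05, lowest adjusted p 0.0526), 1 in the PFC and 5 in the cerebral cortex. Over all genes, 5386 passed in the hippocampus, 2148 after quantile normalization and 0 with the replicate block. The interaction count was 8, 9 after quantile normalization and 7 with arrays of 1 treatment and replicate number as a random block. No label ties such arrays to 1 animal.

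The mean of 6 genes minus Arntl differed by 0.40 in the hippocampus and 0.45 in the PFC after quantile normalization. With the most variable probe set of each gene it was 0.83 in the hippocampus, 0.69 in the PFC and 0.98 in the cerebral cortex. Without Per1, a choice made after the data had been seen, it was 0.62, 0.41 and 0.72. Differences that did not pass changed sign as follows. Arntl in the amygdala was 0.0030 with array weights and -0.039 to 0.010 without each array. Per1 in the amygdala was 0.031 after quantile normalization. Nr1d2 in the amygdala was -0.27 with its most variable probe set and -0.0045 to 0.072 without each array. Clock with its most variable probe set was 0.16 in the amygdala and 0.49 in the cerebral cortex, where it was 0.0056 after median subtraction and -0.047 to 0.0036 without each array. Cry2 in the cerebral cortex was 0.0090 after median subtraction and -0.051 to 0.010 without each array. The causes were not tested.

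With 3 arrays per group, 1 time point and no absolute levels, dim probe sets could not be told from unchanged ones.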
